A study of Sus scrofa with 12 samples.

Results

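The nuclear genes of oxidative phosphorylation were read from the gene symbols of the count table: subunits of NADH dehydrogenase with its NDUFAF assembly factors (NDUFA, NDUFB, NDUFC, NDUFS and NDUFV symbols), succinate dehydrogenase (SDHA to SDHD), the cytochrome bc1 complex (UQCR symbols and CYC1), cytochrome c (CYCS), cytochrome c oxidase (COX4 to COX8 symbols) and ATP synthase (ATP5 symbols). Of 29329 genes in the table, 82 were members, and all 82 were tested. They comprised 32 genes of complex I (6 core and 26 accessory subunits), 8 complex I assembly factors, NDUFA4 and its paralog NDUFA4L2, 4 genes of complex II, 8 of complex III, 14 of complex IV, 12 of complex V, CYCS, and ATP5IF1, the inhibitor of ATP synthase. The rule also takes in the mitochondrially encoded subunits. The identifiers of the 13 such genes in the supplied gene name table were 0 times among the rows, so these genes were not analysed here, and neither were ATP5F1B, COX4I2, COX6B1, NDUFS7 or NDUFV3.

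Oxidative phosphorylation moves electrons from NADH and succinate through complexes I to IV of the inner mitochondrial membrane to oxygen and uses the resulting proton gradient to make ATP at complex V. Complex I takes electrons from NADH, complex II from succinate, complex III passes them to cytochrome c, and complex IV to oxygen. Core subunits carry the redox groups, and accessory subunits surround and stabilise them. An early embryo lives on mitochondria and stored mRNAs inherited from the oocyte until its own genome becomes active, which in pigs is placed around the 4-cell stage.

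Pig (Sus scrofa) embryos made by in vitro fertilisation gave SMART-seq libraries, a method that amplifies full-length cDNA from polyadenylated RNA of a few cells, and each library was a pool of several embryos. The 12 libraries formed 4 groups of 3: the controls con-2c and con-4c, and their treated counterparts si-2c and si-4c. The si embryos had been injected with Si-CCNB2, an siRNA against the mRNA of cyclin B2 (CCNB2), a mitotic cyclin. The con embryos carry the treatment label blank control, and the methods call them normal as well as the NC group of Si-CCNB2. The methods list a negative control among the injected solutions, with injection matched between it and the siRNA. Whether the blank control libraries came from such embryos was unclear, and if they did not, the siRNA and the injection cannot be told apart. The number before "c" is the stage in the library title. The tissue label gave the other stage in all 12 libraries (4-cell for titles with 2c and 2-cell for titles with 4c), so group names stand for titles only, and the sign of each stage difference would turn if the tissue labels hold. The comparisons asked how the genes differed between the stages and between si and control embryos of the same title.

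CCNB2 was low in both si groups. It stood at 464 ± 21.7 CPM (counts scaled to a fixed library size with TMM factors, given as mean ± SD with n = 3 here and below) in con-2c, 475 ± 41.9 CPM in con-4c, 22.7 ± 5.58 CPM in si-2c, with 42.6 ± 3.66 CPM in si-4c. Library totals ran from 27785233 to 39510908 counts. All 11 oocyte and early embryo markers found in the table had counts in every group, summing to between 8584 and 8917 CPM in con-2c, to between 5463 and 5801 CPM in con-4c, to between 4966 and 5446 CPM in si-2c, and to between 7897 and 8266 CPM in si-4c. The 11 cumulus and granulosa cell markers in the table summed to between 4.67 and 5.57 CPM in con-2c and 4.40 and 4.95 CPM in si-4c, and to between 7.57 and 8.19 CPM in con-4c and 6.02 and 8.24 CPM in si-2c, with HAS2, CYP11A1 and FOXL2 at 0 counts in all groups except con-4c. The 5 sperm markers in the table summed to between 54.6 and 68.3 CPM, most of it LDHC. The oocyte markers were thus high in con-2c and si-4c and low in con-4c and si-2c, the cumulus and granulosa markers the other way round, and the part of either in the results below was not tested. In pools of whole embryos, fewer cells of a kind and less RNA per cell cannot be told apart. Separate cultures for the 3 libraries of a group were not stated, so p-values measure the spread between these libraries, which may be technical.

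The 82 genes took 0.658% ± 0.0383 of con-2c counts and 0.667% ± 0.00997 of con-4c counts, beside 0.651% ± 0.0138 for si-2c and 0.581% ± 0.00835 for si-4c. By library totals the si-4c libraries were the lowest and did not overlap with those of the other groups. On TMM scaling the median log2 fold change of the 82 genes in si-4c was 0.13 against con-4c and 0.17 against si-2c. The rank of si-4c thus depends on the scaling. By library totals the summed share hid opposite differences between the complexes. Genes of complex II took 0.0830% ± 0.00782 of the counts in con-2c and 0.0544% ± 0.00096 in con-4c. Most of that share was SDHB, with 24523, 30538 and 27039 counts in con-2c against 13333, 13978 and 13630 in con-4c. Genes of complex I took 0.181% ± 0.0140 and 0.202% ± 0.00520 in the same groups, and those of complex IV 0.164% ± 0.0117 and 0.191% ± 0.00319. On TMM scaling the median log2 fold change in con-4c against con-2c was -0.80 for complex II, -0.21 for complex I and -0.04 for complex IV, negative in each. The opposite direction thus depends on the scaling. The NDUFAF assembly factors, though few in counts, took 0.0122% ± 0.000427 of con-2c counts and 0.0201% ± 0.000753 of con-4c counts, beside 0.0155% ± 0.000658 for si-2c and 0.0124% ± 0.000378 for si-4c. Most of that share was NDUFAF4, with 2698, 3028 and 2814 counts in con-2c against 4158, 4562 and 4138 in con-4c, so the value describes that gene rather than the group. These shares are of library totals without a composition factor and are descriptions without a test.

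**Figure D1:**
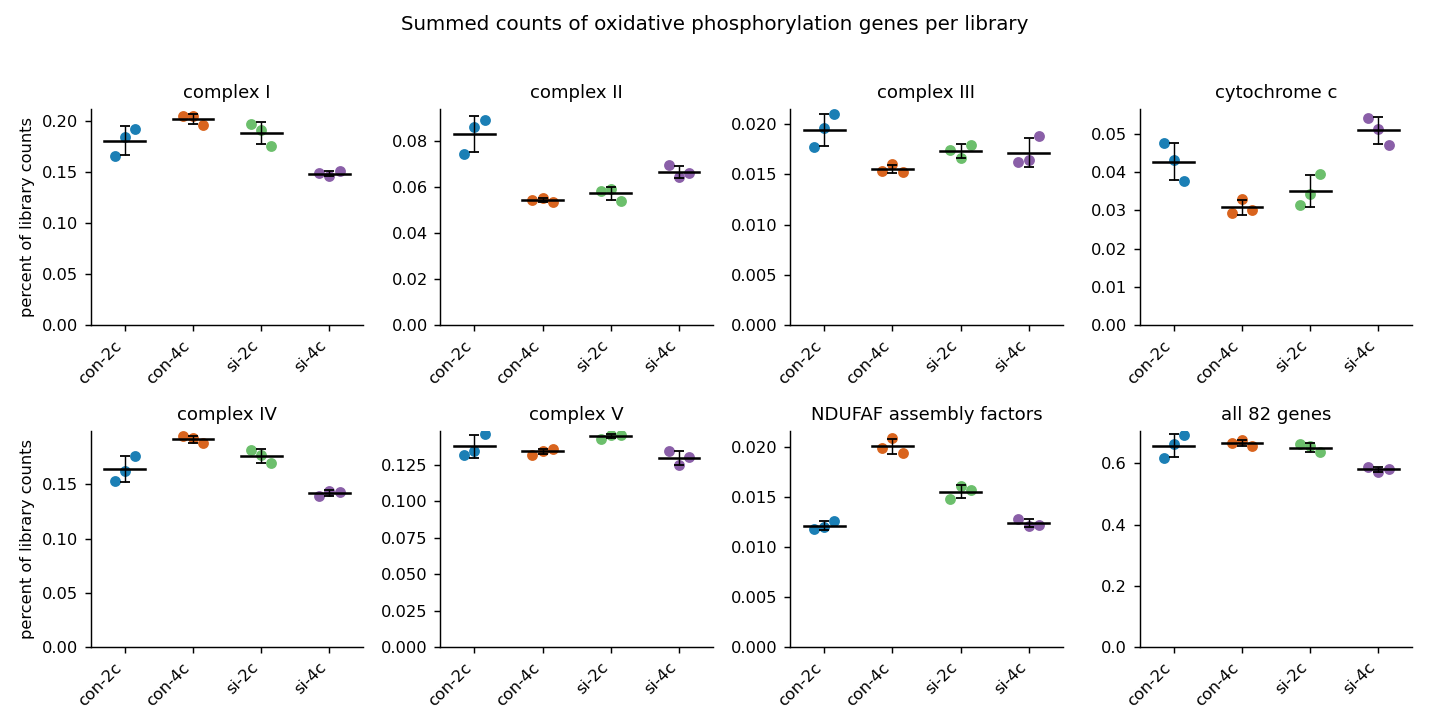
Percent of the library counts (linear axes from 0) taken by the genes of each complex, by the NDUFAF assembly factors and by all 82 genes, for the 3 libraries of each group (points) with mean (line) and SD (bars). The share of complex II, most of it SDHB, was 0.0830% in con-2c and 0.0544% in con-4c, whereas the share of all 82 genes was 0.658% and 0.667%.

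Compared with con-2c, con-4c embryos had a split set of oxidative phosphorylation genes: a few, mostly of complex I (32 of the 82 genes), were far higher, and others were moderately lower. Calls required an adjusted p below 0.05 (edgeR quasi-likelihood test, Benjamini-Hochberg over all 17995 genes tested) together with a log2 fold change of 1 or more in either direction. On that rule 10 of the 82 genes (12.2%) rose and 4 (4.88%) fell, where 14.4% of all genes tested were called higher and 3.25% lower. By the adjusted p alone 16 genes (19.5%) were higher and 31 (37.8%) lower, beside 20.7% and 15.1% of all genes, and with library totals in place of TMM the counts were 22 and 21. On TMM scaling the share called higher was thus near the background, and the share lower by adjusted p was above it. Shares of all genes by adjusted p alone were not counted with library totals, here or below. Without con-4c replicate 1, 7 genes were called lower, with NDUFB10, NDUFC2 and NDUFS6 added. The median log2 fold change of the 82 genes was -0.17, and that of all genes tested 0.11. Scaled by library totals alone, the median of all genes was 0.38 and that of the 82 genes 0.10, so the direction of the members' median depends on the scaling. The members' median lay 0.28 below that of all genes, a difference that scaling, which shifts all genes alike, leaves nearly fixed by construction.

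**Figure D2:**
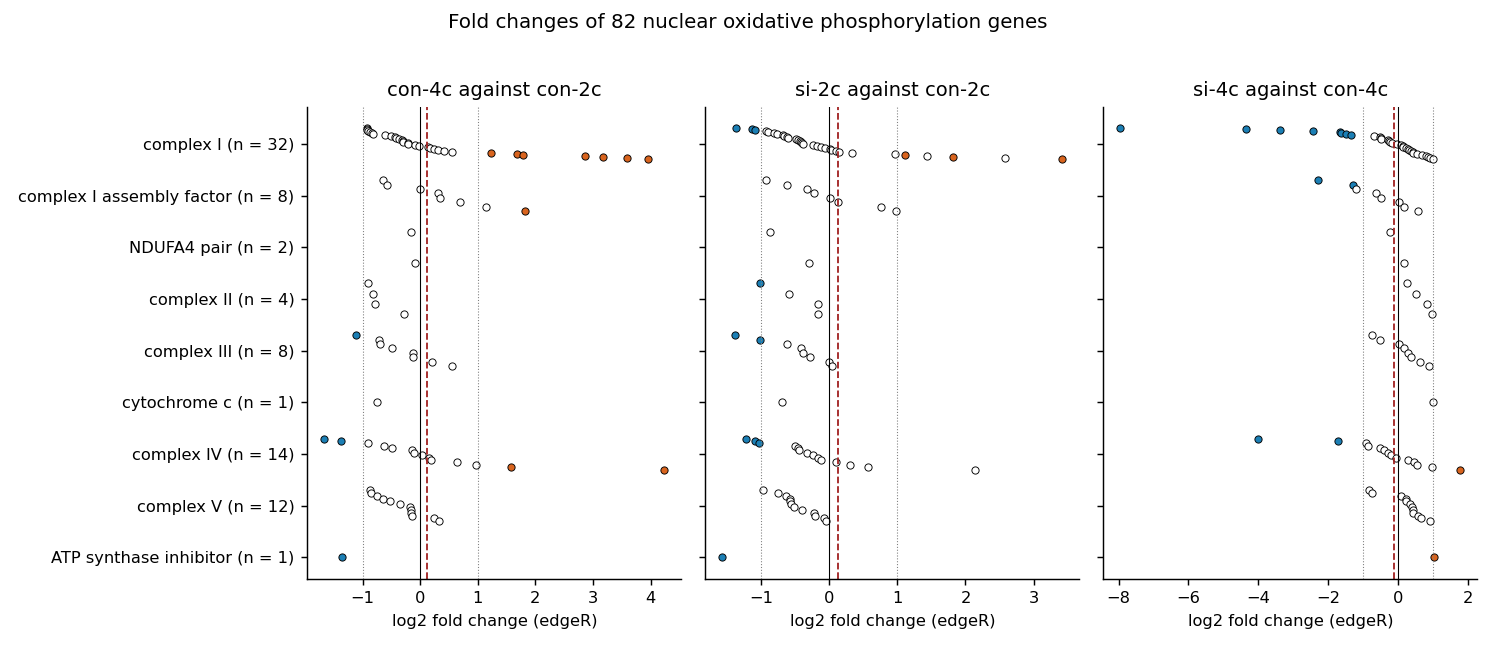
Log2 fold change (linear axis, fitted by edgeR) of each of the 82 genes by complex, in panels for con-4c and for si-2c, both set against con-2c, and for si-4c set against con-4c, with genes called higher in orange, called lower in blue and not called in white. The dashed red line is the median of all 17995 genes tested and the dotted lines mark 1 and -1. The con-4c panel holds 10 genes called higher, 7 of them in complex I, and the point near -8 in si-4c is NDUFV1, whose fitted value is no bound because it had 0 counts there.

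Of the 32 complex I genes, 7 rose in con-4c (21.9%) and 0 fell, beside 14.4% and 3.25% of all genes tested. They included 3 of the 6 core members: NDUFV1, which binds NADH and the flavin, NDUFS1, an iron-sulfur subunit of the NADH-oxidising module, and NDUFS8, an iron-sulfur subunit on the way to ubiquinone. The other 4 were accessory subunits, NDUFA2, NDUFA13, NDUFB7 and NDUFB11. The core members NDUFS3 and NDUFV2 had log2 fold changes of 0.31 and -0.29, which passed by adjusted p (0.0481 and 0.0385, edgeR) but not by fold, and were not called.

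NDUFA2, an accessory subunit that sits beside NDUFS1, had the smallest adjusted p of these 7. Its level was 6.62, 7.31 and 4.58 CPM in the 3 con-2c libraries, 96.5, 97.5 and 93.3 CPM in con-4c, 67.4, 73.8 and 57.7 CPM in si-2c, with 5.25, 4.19 and 4.72 CPM in si-4c. All con-4c and si-2c libraries were high, all con-2c and si-4c libraries low, and the high and low groups were far apart. The log2 fold change in con-4c against con-2c was 3.95 (SE 0.15, edgeR adjusted p = 2.96e-12), a 15.5-fold difference. In RefSeq (Sscrofa11.1) NDUFA2 lies at chr2:142359000-142361126 and overlaps TMCO6, and the use of strand in counting was not stated, so reads of the pair could be mixed. TMCO6 moved the other way, from 14.2 ± 1.32 CPM in con-2c to 6.36 ± 0.527 CPM in con-4c (log2 fold change -1.16 with SE 0.16, edgeR adjusted p = 2.05e-05).

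NDUFB11, a membrane arm subunit, was at 7.16, 7.61 and 6.89 CPM in con-2c against 24.5, 24.8 and 25.4 CPM in con-4c, and 14.0, 16.2 and 12.3 CPM in si-2c against 8.67, 7.49 and 7.11 CPM in si-4c. The con-4c libraries stood above all others, si-2c lay between, and con-2c and si-4c overlapped. It rose by 1.78 on the log2 scale in con-4c (SE 0.14, edgeR adjusted p = 2.31e-08). NDUFB11 (chrX:41770929-41773879) overlaps RBM10, which stood at 3.44 ± 0.821 CPM in con-2c against 5.50 ± 1.82 CPM in con-4c and was not called (log2 fold change 0.67, edgeR adjusted p = 0.0875).

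NDUFA13, the accessory subunit also known as GRIM-19, was at 1.15, 1.34 and 1.32 CPM in con-2c against 8.79, 8.09 and 11.02 CPM in con-4c, and 4.78, 4.45 and 4.25 CPM in si-2c against 2.25, 1.68 and 1.22 CPM in si-4c. It showed the same order of groups, with only con-2c and si-4c overlapping, and rose by 2.87 on the log2 scale in con-4c (SE 0.25, edgeR adjusted p = 1.06e-07). NDUFB7 was at 4.04, 4.46 and 4.06 CPM in con-2c against 11.06, 10.3 and 7.93 CPM in con-4c, and 5.24, 4.04 and 4.18 CPM in si-2c against 4.65, 2.75 and 2.96 CPM in si-4c. Here only con-4c stood apart, and the other groups overlapped with each other. Its log2 fold change in con-4c was 1.22 (SE 0.22, edgeR adjusted p = 0.000342).

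The core genes that rose were sparse. NDUFS1 (chr15:109413726-109451813) stood at 1.54 ± 0.182 CPM in con-2c, 4.93 ± 0.479 CPM in con-4c, 3.32 ± 0.530 CPM in si-2c, with 1.59 ± 0.657 CPM in si-4c. NDUFS8 (chr2:4863295-4867392) stood at 0.436 ± 0.213, 3.99 ± 1.76, 1.19 ± 0.435 and 0.379 ± 0.328 CPM in the same order. The nearby NDUFV1 (chr2:4958508-4964211) stood at 0.0704 ± 0.0624, 0.889 ± 0.403 and 0.445 ± 0.274 CPM in con-2c, con-4c and si-2c, and had 0 counts in all 3 si-4c libraries. All 3 genes were highest in con-4c. The log2 fold changes in con-4c against con-2c were 1.68 for NDUFS1, 3.18 for NDUFS8 and 3.58 for NDUFV1, with edgeR adjusted p of 0.000216, 0.0018 and 0.0236. The call of NDUFV1 was lost when con-2c replicate 1, con-4c replicate 1 or con-4c replicate 2 was left out.

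The called genes were uneven along the genome: among the 9 members with a RefSeq position on chromosome 2, 5 rose in con-4c (NDUFA2, NDUFA13, NDUFB7, NDUFS8 and NDUFV1), where 12% of the 982 tested genes of that chromosome were called higher. This was noticed after the values were seen and is a description only.

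The complex I assembly factors held 1 called gene of 8, which was higher (12.5%, beside 14.4% of all genes). NDUFAF5, which hydroxylates a core subunit during assembly, rose from 1.58 ± 0.382 CPM in con-2c to 5.61 ± 1.27 CPM in con-4c (log2 fold change 1.83 with SE 0.29, edgeR adjusted p = 0.000101), and was at 3.10 ± 0.853 CPM in si-2c, with 1.13 ± 0.0797 CPM in si-4c. The other NDUFAF genes had log2 fold changes between -0.64 and 1.15.

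**Figure D3:**
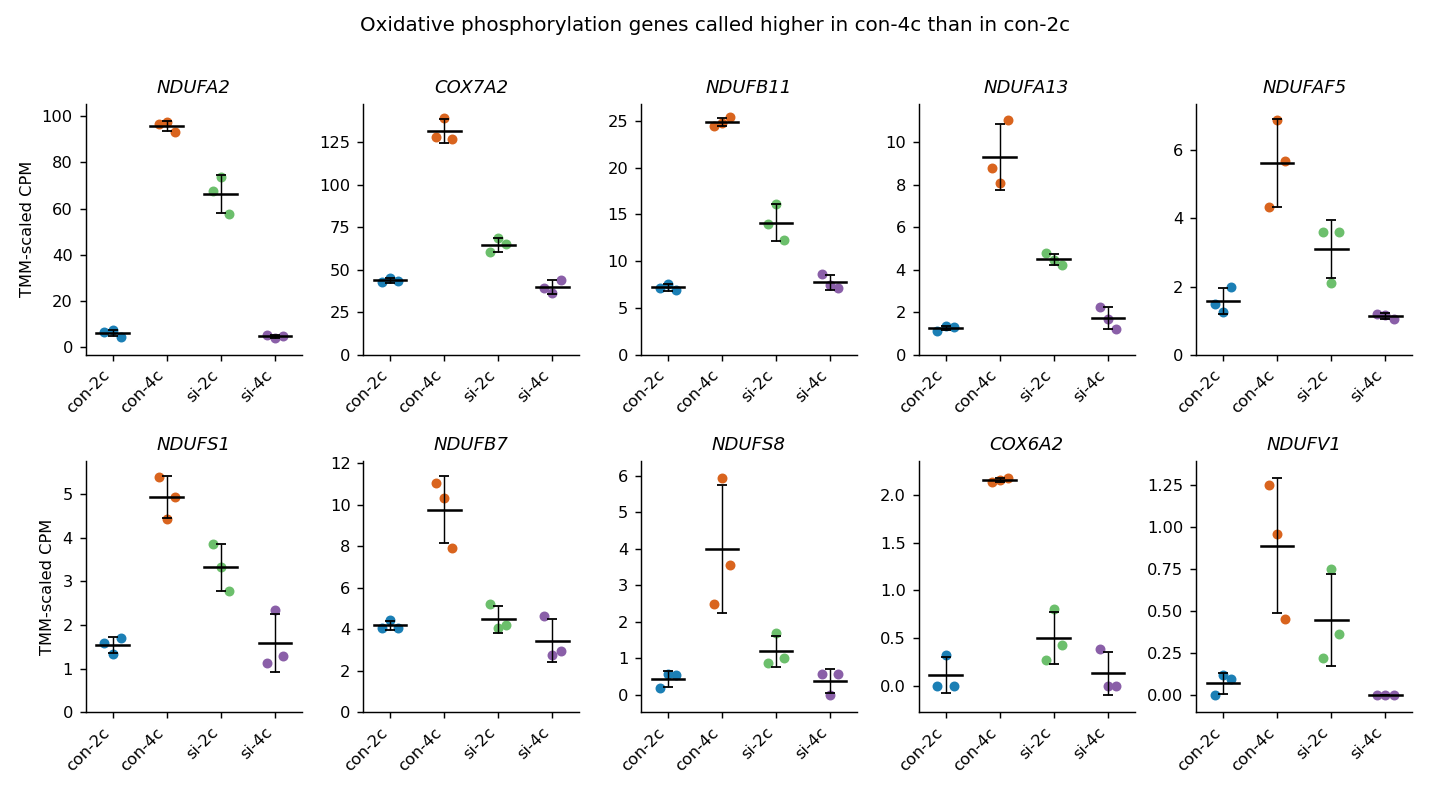
TMM-scaled CPM (linear axes) of the 10 genes that rose between con-2c and con-4c, for the 3 libraries of each group (points) with mean (line) and SD (bars). The order con-4c, si-2c and then con-2c or si-4c recurs; NDUFA2 is at 95.8, 66.3, 6.17 and 4.72 CPM.

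The genes that fell in con-4c were COX7A2L and COX7B of complex IV, UQCRB of complex III, and ATP5IF1. COX7A2L, a COX7A family member known for its role in joining complexes III and IV, was at 219.6, 205 and 178 CPM in con-2c against 64.7, 62.5 and 62.6 CPM in con-4c, and 76.9, 89.0 and 92.3 CPM in si-2c against 239.8, 211 and 199 CPM in si-4c. All con-2c and si-4c libraries were high and all con-4c and si-2c libraries low. It fell by 1.67 on the log2 scale (SE 0.10, edgeR adjusted p = 9.6e-10), a 3.17-fold difference.

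COX7B, a small complex IV subunit, was at 96.6, 111 and 113 CPM in con-2c against 44.6, 41.5 and 37.5 CPM in con-4c, and 51.0, 49.0 and 50.4 CPM in si-2c against 77.1, 80.4 and 81.6 CPM in si-4c. The groups did not overlap, with con-2c highest and con-4c lowest. Its log2 fold change was -1.38 (SE 0.09, edgeR adjusted p = 2.69e-09). UQCRB, the ubiquinone-binding subunit of complex III, was at 39.5, 46.6 and 43.6 CPM in con-2c against 19.4, 20.5 and 20.3 CPM in con-4c, and 16.2, 15.8 and 17.6 CPM in si-2c against 33.6, 37.8 and 40.1 CPM in si-4c. Again con-2c and si-4c were high and overlapped, and con-4c and si-2c were low. Its log2 fold change was -1.11 (SE 0.10, edgeR adjusted p = 2.51e-07), and -0.84 with library totals, where it was not called.

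ATP5IF1, the protein that blocks ATP hydrolysis by complex V, was at 19.2, 30.1 and 24.4 CPM in con-2c against 9.71, 8.38 and 10.6 CPM in con-4c, and 9.23, 9.35 and 6.27 CPM in si-2c against 19.7, 18.2 and 20.8 CPM in si-4c. The split into high con-2c and si-4c and low con-4c and si-2c was the same. It fell by 1.36 on the log2 scale in con-4c (SE 0.18, edgeR adjusted p = 1.28e-05). None of the 12 complex V genes was called (0 higher, 0 lower, beside 14.4% and 3.25% of all genes). By adjusted p alone 2 (16.7%) were higher and 5 (41.7%) lower, beside 20.7% and 15.1% of all genes.

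Complex II was lower in con-4c in 3 of its 4 genes by adjusted p (75%, beside 15.1% of all genes). All 3 were short of the fold threshold, and these 3 also passed in that direction with library totals. SDHB, the iron-sulfur subunit, was at 780.4, 907 and 831 CPM in con-2c against 439, 463 and 443 CPM in con-4c, and 419, 447 and 375 CPM in si-2c against 684, 612 and 628 CPM in si-4c. Every con-2c and si-4c library lay above every con-4c and si-2c library (log2 fold change in con-4c -0.91 with SE 0.08, edgeR adjusted p = 2.11e-07).

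The membrane anchors followed. SDHC was at 35.6, 43.8 and 34.1 CPM in con-2c against 20.3, 22.9 and 21.2 CPM in con-4c, and 23.5, 25.0 and 26.8 CPM in si-2c against 40.5, 37.2 and 36.2 CPM in si-4c. SDHD was at 36.6, 42.3 and 36.7 CPM in con-2c against 22.3, 22.8 and 21.8 CPM in con-4c, and 33.3, 35.3 and 34.3 CPM in si-2c against 53.9, 38.8 and 38.6 CPM in si-4c. In SDHC the high and low groups were those of SDHB, whereas in SDHD si-2c lay just below con-2c (log2 fold changes in con-4c -0.82 and -0.79, edgeR adjusted p = 1.8e-05 and 7.11e-05).

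SDHA, the flavoprotein that oxidises succinate, was at 16.1, 16.8 and 22.2 CPM in con-2c against 16.0, 15.7 and 13.7 CPM in con-4c, and 18.5, 18.7 and 12.1 CPM in si-2c against 16.9, 19.1 and 17.6 CPM in si-4c. The group means were close and it did not pass the test (log2 fold change in con-4c -0.28 with SE 0.17, edgeR adjusted p = 0.208).

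CYCS, the mobile carrier between complexes III and IV, whose processed pseudogenes could share reads with it, was at 557, 506 and 392 CPM in con-2c against 268, 313 and 281 CPM in con-4c, and 266, 306 and 328 CPM in si-2c against 622, 566 and 515 CPM in si-4c. Con-2c and si-4c were high and con-4c and si-2c low without overlap (log2 fold change in con-4c -0.76 with SE 0.12, edgeR adjusted p = 8.14e-05).

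By adjusted p alone the lower genes were spread over the complexes in con-4c: 10 of the 26 accessory subunits of complex I (38.5%), 4 of 8 complex III genes (50%), 5 of 14 of complex IV (35.7%) and 5 of 12 of complex V (41.7%), beside 15.1% of all genes. In the same order 4 (15.4%), 0, 4 (28.6%) and 2 (16.7%) were higher, beside 20.7% of all genes. With library totals the balance turned in complex I as a whole (from 8 higher and 11 lower to 11 and 8) and in complex IV (from 4 and 5 to 7 and 3), while complex III had 2 lower and complex V 2 higher and 3 lower. The following examples outside the rule for named genes were picked after their values were seen. NDUFB5 and NDUFA8, accessory subunits of complex I, just missed the fold threshold: NDUFB5 had 84.8 ± 3.40 CPM in con-2c, 44.5 ± 2.38 CPM in con-4c, 45.4 ± 0.422 CPM in si-2c, with 88.7 ± 7.57 CPM in si-4c. Its log2 fold change in con-4c was -0.93 (edgeR adjusted p = 1.85e-07), and that of NDUFA8 was -0.91 (edgeR adjusted p = 6.55e-07). In complex IV, COX4I1, the general isoform of the largest nuclear-encoded subunit, moved up from 18.9 ± 2.82 to 37.1 ± 2.59 CPM and stood at 20.2 ± 2.94 CPM in si-2c. Its log2 fold change of 0.97 (edgeR adjusted p = 1.74e-05) was just under the threshold, and it was called higher with library totals.

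In complex V, ATP5MK and ATP5PF had another order of groups. ATP5MK, a small membrane subunit, had 65.2 ± 2.78 CPM in con-2c, 77.3 ± 1.52 CPM in con-4c, 38.8 ± 2.04 CPM in si-2c, with 46.1 ± 3.16 CPM in si-4c. ATP5PF, coupling factor 6 of the stalk, had 64.4 ± 3.68, 81.2 ± 5.20, 43.1 ± 5.14 and 45.4 ± 4.06 CPM in that order. Both si groups lay below both control groups in mean level, and these were the only complex V genes lower in si-4c than con-4c by adjusted p (log2 fold changes -0.75 and -0.84, edgeR adjusted p = 2e-06 and 5.35e-06), while 6 others were higher, or 1 with library totals. These were 16.7% lower and 50% higher of the complex, beside 21.7% and 15.1% of all genes on TMM scaling.

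**Figure D4:**
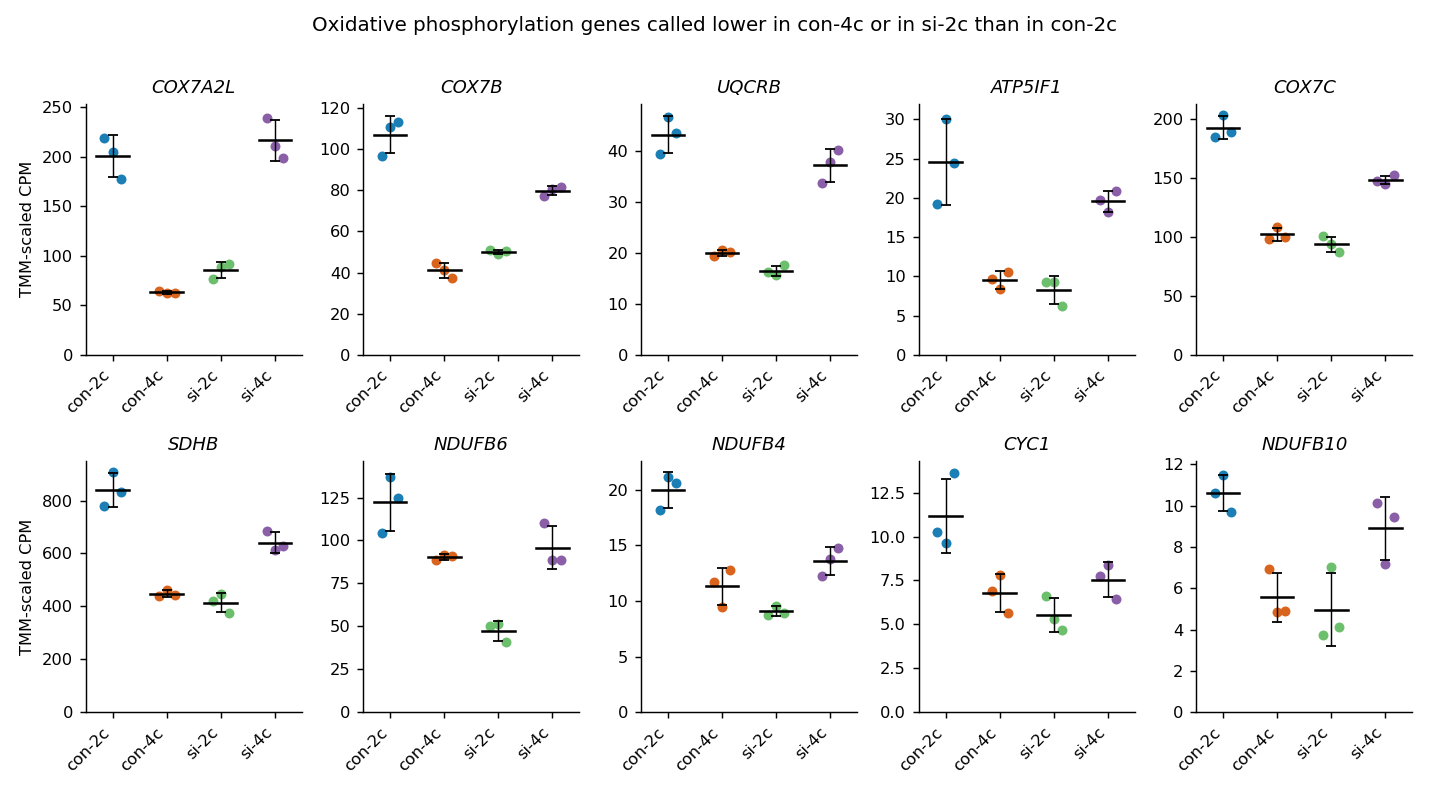
TMM-scaled CPM (linear axes from 0) of the genes called lower than con-2c in con-4c (COX7A2L, COX7B, UQCRB and ATP5IF1) or in si-2c alone (the other 6), for the 3 libraries of each group (points) with mean (line) and SD (bars). NDUFB6 is at 122 CPM in con-2c, 90.4 CPM in con-4c, 47.3 CPM in si-2c, with 95.8 CPM in si-4c.

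Members of the COX7A family differed in direction. COX7A2, the widely expressed isoform of its subunit, was at 42.8, 45.4 and 43.1 CPM in con-2c against 128, 139 and 127 CPM in con-4c, and 60.3, 68.5 and 65.2 CPM in si-2c against 39.1, 36.1 and 44.2 CPM in si-4c. Con-4c was far above the rest and si-2c between. It rose by 1.59 on the log2 scale in con-4c (SE 0.09, edgeR adjusted p = 5.8e-10), while COX7A2L fell. COX7A1, the heart and muscle isoform, was at 6.52, 5.14 and 7.96 CPM in con-2c against 4.41, 3.81 and 4.52 CPM in con-4c, and 4.17, 5.71 and 4.36 CPM in si-2c against 5.34, 4.63 and 7.41 CPM in si-4c. Con-4c lay below con-2c without overlap, while si-2c and si-4c overlapped with con-2c (log2 fold change in con-4c -0.62 with SE 0.23, edgeR adjusted p = 0.0425).

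COX6A1, the isoform of most tissues, was at 165, 224 and 199.6 CPM in con-2c against 283, 335 and 299 CPM in con-4c, and 229, 231 and 269.9 CPM in si-2c against 169.8, 159.8 and 155 CPM in si-4c. Con-4c was highest and did not overlap with the others (log2 fold change 0.64 with SE 0.11, edgeR adjusted p = 0.000132, under the fold threshold). COX6A2, its heart and muscle paralog, was at 0, 0.327 and 0 CPM in con-2c against 2.14, 2.15 and 2.18 CPM in con-4c, and 0.268, 0.804 and 0.429 CPM in si-2c against 0.390, 0 and 0 CPM in si-4c. It had counts in every library of con-4c and si-2c, and in 1 library each of con-2c and si-4c. It rose by 4.24 on the log2 scale in con-4c (SE 1.22, edgeR adjusted p = 0.0121), a size that rests on the 1 con-2c library with any count.

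COX7B2, the paralog of COX7B, was at 16.6, 21.9 and 17.6 CPM in con-2c against 12.1, 14.8 and 13.2 CPM in con-4c, and 12.6, 13.8 and 13.0 CPM in si-2c against 19.8, 15.5 and 13.3 CPM in si-4c. Its log2 fold change in con-4c was -0.48, beside -1.38 for COX7B (SE 0.15, edgeR adjusted p = 0.0208). NDUFA4, now counted with complex IV, was at 160.3, 192 and 158 CPM in con-2c against 151, 166 and 159 CPM in con-4c, and 139.5, 138 and 139 CPM in si-2c against 139, 131 and 137 CPM in si-4c. Con-2c and con-4c overlapped, and both si groups lay lower on TMM scaling, though the log2 fold change of si-2c against con-2c went from -0.29 to 0.11 with library totals (log2 fold change in con-4c -0.10 with SE 0.08, edgeR adjusted p = 0.398). NDUFA4L2, its hypoxia-associated paralog, was at 0.509, 1.22 and 0.400 CPM in con-2c against 1.09, 0.497 and 0.325 CPM in con-4c, and 0.268, 0.348 and 0.536 CPM in si-2c against 1.08, 1.07 and 0 CPM in si-4c, and its groups overlapped throughout.

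The ATP5MC genes encode the same mature c subunit of ATP synthase with different import sequences, and reads of near-identical stretches could be split between them. ATP5MC1 was at 14.1, 19.9 and 18.6 CPM in con-2c against 10.1, 11.14 and 12.5 CPM in con-4c, and 14.1, 12.8 and 8.26 CPM in si-2c against 17.6, 18.5 and 16.6 CPM in si-4c. ATP5MC2 was at 80.5, 78.5 and 86.1 CPM in con-2c against 51.6, 48.6 and 46.1 CPM in con-4c, and 55.0, 59.3 and 51.1 CPM in si-2c against 76.7, 68.7 and 71.1 CPM in si-4c. Both were lower in con-4c without overlap with con-2c, with log2 fold changes of -0.64 and -0.74 (edgeR adjusted p = 0.0108 and 3.41e-06). ATP5MC3 was at 339, 329.9 and 338 CPM in con-2c against 290.0, 308 and 309 CPM in con-4c, and 301, 336 and 315 CPM in si-2c against 352, 298 and 308 CPM in si-4c. Its groups were close to each other (log2 fold change in con-4c -0.15 with SE 0.08, edgeR adjusted p = 0.152).

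**Figure D5:**
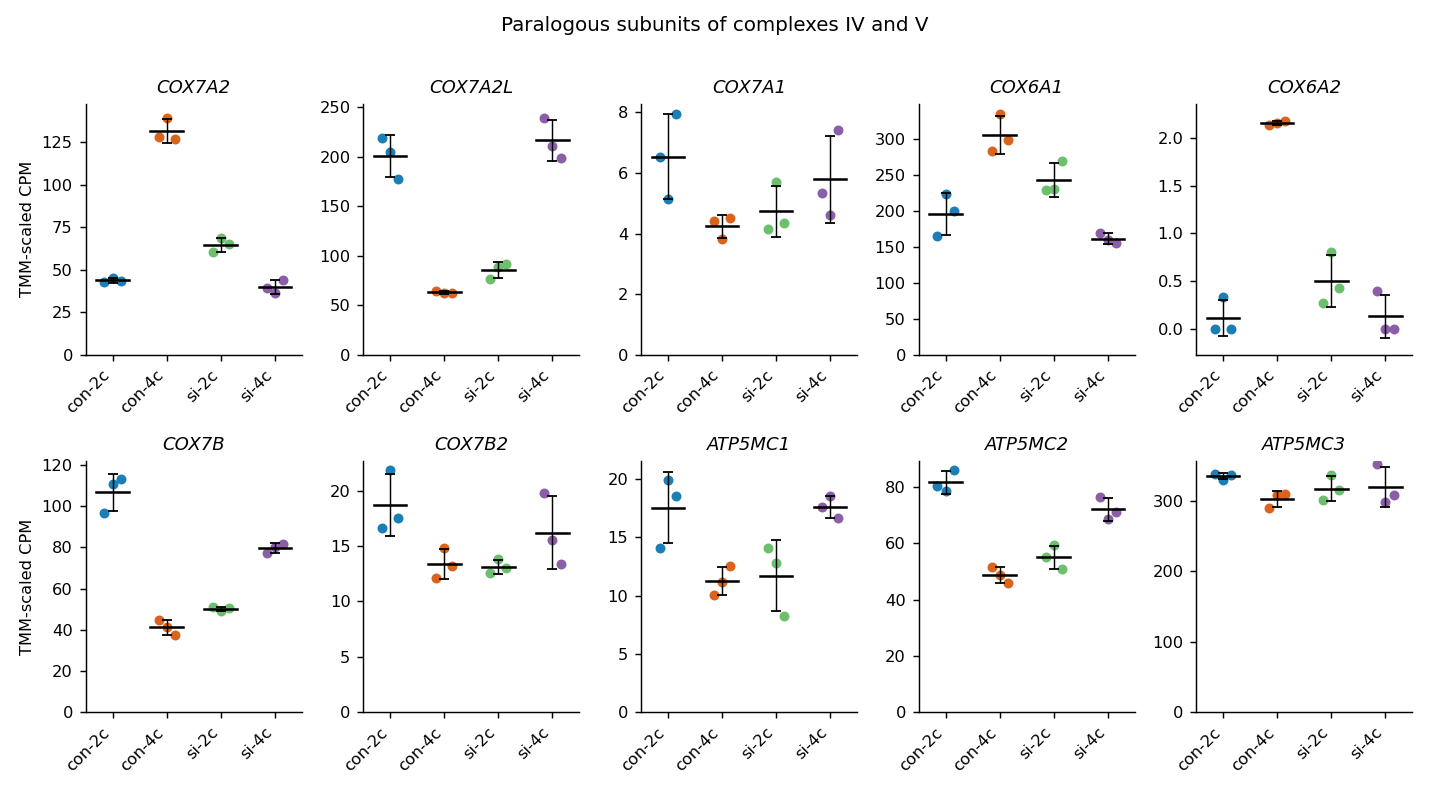
TMM-scaled CPM (linear axes) of paralogous subunits of complexes IV and V, for the 3 libraries of each group (points) with mean (line) and SD (bars). COX7A2 goes from 43.7 CPM in con-2c to 131 CPM in con-4c while COX7A2L goes from 201 to 63.3 CPM.

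Compared with con-2c, si-2c embryos had more oxidative phosphorylation genes called lower than higher. On TMM scaling 3 of the 82 genes (3.66%) rose and 10 (12.2%) fell, beside 10.7% and 1.8% of all genes tested. By adjusted p alone 8 genes (9.76%) were higher and 35 (42.7%) lower, beside 16.6% and 12.3%, and with library totals 20 were higher and 18 lower. The split depends on scaling: with library totals 7 of the 82 genes were called higher and 1, ATP5IF1, lower. Of all 17995 genes tested, 3028 were then called higher and 58 lower, so the background shifted in the same direction. The median of all genes moved from 0.12 to 0.52 and that of the 82 genes from -0.39 to -0.00. On TMM scaling the members' median lay 0.52 below that of all genes.

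The 3 genes that rose in si-2c were NDUFA2, NDUFA13 and NDUFS1, all of complex I (9.38% of its 32 genes, beside 10.7% of all genes). The con-2c libraries enter this comparison and the one before. Their log2 fold changes were 3.42 (SE 0.15, edgeR adjusted p = 2.8e-11), 1.82 (SE 0.24, edgeR adjusted p = 2.46e-05) and 1.11 (SE 0.29, edgeR adjusted p = 0.00779). Without si-2c replicate 1 the value of NDUFS1 was 0.98, under the fold threshold.

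The 10 genes that fell in si-2c belonged to complexes I to IV, with ATP5IF1 besides. In complex I they were NDUFB4, NDUFB6 and NDUFB10, accessory subunits of the membrane arm, with log2 fold changes of -1.14, -1.37 and -1.10. NDUFB6 was at 122 ± 16.4 CPM in con-2c, 90.4 ± 1.60 CPM in con-4c, 47.3 ± 5.78 CPM in si-2c, with 95.8 ± 12.6 CPM in si-4c, so that si-2c stood apart from all other groups (edgeR adjusted p = 1.61e-07 against con-2c). NDUFB4 went from 19.99 ± 1.59 to 9.09 ± 0.447 CPM, and NDUFB10, which overlaps RPS2 and RPL3L in RefSeq, from 10.6 ± 0.892 to 4.97 ± 1.78 CPM (edgeR adjusted p = 8.52e-06 and 0.00164).

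In the other complexes SDHB (log2 fold change -1.02), CYC1 (-1.01), UQCRB (-1.39), COX7A2L (-1.22), COX7B (-1.09), COX7C (-1.04) and ATP5IF1 (-1.57) fell, with edgeR adjusted p between 3.13e-08 and 0.000731. COX7C, a small complex IV subunit, went from 192 ± 9.84 CPM in con-2c to 93.8 ± 6.41 CPM in si-2c, and CYC1, cytochrome c1 of complex III, from 11.2 ± 2.12 to 5.54 ± 0.969 CPM. Several lay close to the fold threshold. Without si-2c replicate 3, 6 genes were called lower, with COX7C, CYC1, NDUFB10 and SDHB lost. Without con-2c replicate 2, 5 were called higher, with COX6A2 and NDUFB11 added.

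Compared with con-4c, si-4c embryos had low levels of several complex I genes and of COX7A2, and high levels of COX7A2L. Here 2 of the 82 genes (2.44%) rose and 12 (14.6%) fell, beside 3.12% and 15.8% of all genes tested, shares close to the background. By adjusted p alone 24 genes (29.3%) were higher and 24 (29.3%) lower, beside 15.1% and 21.7%, and with library totals 16 were higher and 31 lower. The median log2 fold change was 0.13, with -0.11 over all genes. With library totals it was -0.13, with -0.37 over all genes, so the members' direction again depends on scaling. Without si-4c replicate 1 the members' median was 0.0052.

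The con-4c libraries enter this comparison as well as the one between controls. Of the 12 genes that fell, 8 were of complex I (25% of its 32 genes, beside 15.8% of all genes). NDUFA2 had a log2 fold change of -4.34 (SE 0.15, edgeR adjusted p = 1.1e-12), NDUFS8 of -3.39 (SE 0.71, edgeR adjusted p = 0.00118), NDUFA13 of -2.43 (SE 0.24, edgeR adjusted p = 5.09e-07) and COX7A2 of -1.72 (SE 0.09, edgeR adjusted p = 1.99e-10). NDUFV1 had 0 counts in si-4c against 0.887 CPM over the con-4c group, at least 30.0-fold lower when the floor is set at 3 counts over the group (0.0296 CPM). NDUFS1, NDUFB7, NDUFB11, NDUFAF5 and COX6A2 fell too, with log2 fold changes of -1.63, -1.50, -1.68, -2.30 and -4.02, the last a size that rests on the 1 si-4c library with any COX6A2 count.

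NDUFAB1, the mitochondrial acyl carrier protein that is also a complex I subunit, was at 2.49 ± 0.160 CPM in con-4c and 0.965 ± 0.165 CPM in si-4c (log2 fold change -1.36 with SE 0.34, edgeR adjusted p = 0.00447). NDUFAF6, an early assembly factor, was at 2.69 ± 0.494 and 1.08 ± 0.494 CPM (log2 fold change -1.31 with SE 0.43, edgeR adjusted p = 0.0252). Its call was lost when con-4c replicate 1 or 3 or si-4c replicate 2 or 3 was left out.

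The 2 genes that rose in si-4c were COX7A2L, by 1.78 (SE 0.10, edgeR adjusted p = 3.98e-10), and ATP5IF1, by 1.03 (SE 0.18, edgeR adjusted p = 0.000214) on the log2 scale. ATP5IF1 sat at the fold threshold: its log2 fold change was 0.99 with DESeq2 size factors and 0.78 with library totals, and it was not called there. NDUFB5 (0.99), CYCS (0.98), SDHD (0.97) and COX7B (0.95) were next, higher by adjusted p and below the threshold. Without si-4c replicate 3, 4 genes were called higher, with CYCS, NDUFB5 and SDHD added and ATP5IF1 lost.

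Within the si embryos, si-4c was compared with si-2c. NDUFA2, NDUFA13, NDUFAF5, NDUFS1 and NDUFV1 fell (5 of 82, 6.1%, where 11.9% of all genes were called lower), and ATP5IF1, COX7A2L, NDUFB6 and UQCRB rose (4 of 82, 4.88%, beside 1.47%). By adjusted p alone 26 genes (31.7%) were higher and 9 (11%) lower, beside 12.1% and 16.9% of all genes. With library totals that balance turned to 13 higher and 23 lower, and 0 of the 82 genes were called higher and 8 lower. Of all 17995 genes tested, 50 were called higher and 3096 lower with that scaling. NDUFA2 fell by 3.81 on the log2 scale (SE 0.15, edgeR adjusted p = 8.15e-12) and COX7A2L rose by 1.33 (SE 0.10, edgeR adjusted p = 2.45e-08). NDUFV1 was at least 14.6-fold lower. The call of NDUFS1 was lost without si-2c replicate 1, si-4c replicate 1 or si-4c replicate 3, and that of NDUFV1 when only the 2 groups were fitted.

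The control and si pairs of groups share no library. Of the 10 genes that rose in con-4c against con-2c, 5 (50%) fell in si-4c against si-2c, and these were all 5 (100%) that fell there. Over all genes tested the corresponding shares were 62.1% and 75.6%, and the member shares rest on calls of NDUFS1 and NDUFV1 that were lost under the settings just given. Of the 4 genes that fell in the control pair, 3 (75%) rose in the si pair, which is 75% of the 4 that rose there. Over all genes the shares were 27.9% and 61.7%. With library totals 0 members were called higher in the si pair, so these member shares depend on scaling. No member was called in the same direction in both pairs (0 of 10 and 0 of 4). Over all genes tested the counts were 0 of 2598 higher and 1 of 584 lower (0.171%), so nothing particular to the members is read from this.

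The test of the difference itself, (si-4c minus si-2c) less (con-4c minus con-2c), called 24 of the 82 genes (29.3%) higher and 11 (13.4%) lower, beside 9.87% and 22.5% of all genes tested. With library totals the split was 7 higher and 17 lower, and all of those 7 and all of the original 11 kept their direction. The share of all genes in this test was not counted with library totals. NDUFA2 had an interaction of -7.77 (SE 0.21, edgeR adjusted p = 2.11e-14), COX7A2L of 2.998 (SE 0.14, edgeR adjusted p = 2.26e-11) and UQCRB of 2.28 (SE 0.15, edgeR adjusted p = 1.46e-09) on the log2 scale.

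Groups with different titles were also compared across treatments. By title as well as by tissue label, the groups of each such comparison were of different stages. In si-4c against con-2c, edgeR called 0 of the 82 genes higher and 0 lower, DESeq2 likewise 0 and 0, where 0.0333% and 0.3% of all genes were called. At an unadjusted p below 0.05, 1 gene was higher and 27 lower, and the share of all genes at that level was not counted. By adjusted p alone 0 genes were higher and 9 (11%) lower, beside 0.106% and 0.567% of all genes. These 9 were ATP5ME, ATP5MK, ATP5PF, COX7B, COX7C, NDUFA1, NDUFA6, NDUFB2 and SDHB. With library totals 7 of them passed, and COX7B and COX7C of complex IV did not. On TMM scaling COX7B, for example, was lower by 0.42 on the log2 scale (SE 0.09, edgeR adjusted p = 0.0325), SDHB by 0.39 (edgeR adjusted p = 0.0375), and the median of the 82 genes was -0.14. CCNB2 itself was lower by 3.45 on the log2 scale (edgeR adjusted p = 4.43e-10) in the same comparison.

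In si-2c against con-4c, 0 genes rose and 3 (3.66%) fell, beside 0.161% and 1.63% of all genes. These were COX7A2 (log2 fold change -1.02 with SE 0.09, edgeR adjusted p = 3.37e-06), NDUFA13 (-1.05 with SE 0.23, edgeR adjusted p = 0.0074) and NDUFB7 (-1.12 with SE 0.22, edgeR adjusted p = 0.00391). By adjusted p alone 2 genes (2.44%), COX7A2L and SDHD, were higher and 16 (19.5%) lower, beside 2.22% and 5.32% of all genes, and with library totals 7 were higher and 12 lower. All 3 calls were lost with library totals, where 0 genes were called either way.

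Other genes of the pathway were read from 3 lists outside the members. The first list held 50 genes: assembly factors of complexes I to V, and with them LRPPRC, SLIRP and TACO1, which act on mitochondrial mRNAs or their translation. Of these, 43 were tested, and 8, SLIRP among them, rose (18.6%) and 1 fell (2.33%) in con-4c against con-2c, beside 14.4% and 3.25% of all genes. Relative to con-2c, si-2c had 6 that rose (14.0%) and 3 that fell (6.98%), beside 10.7% and 1.8% of all genes. Relative to con-4c, si-4c had 2 that rose (4.65%) and 8 that fell (18.6%), beside 3.12% and 15.8%. SCO1, a copper chaperone of complex IV, stood at 1.85 ± 1.26 CPM in con-2c against 16.0 ± 1.37 CPM in con-4c (log2 fold change 3.12 with SE 0.35, edgeR adjusted p = 2.43e-06). TMEM126A, a complex I assembly factor, stood at 4.12 ± 0.681 and 22.6 ± 1.07 CPM (log2 fold change 2.45, edgeR adjusted p = 7.23e-09), and SLIRP, which binds mitochondrial mRNAs, at 1.62 ± 0.196 and 10.8 ± 1.32 CPM (2.74, edgeR adjusted p = 2.15e-08). All 3 fell in si-4c relative to con-4c. LYRM7, a complex III assembly factor, fell from 127 ± 24.1 to 43.4 ± 4.15 CPM (log2 fold change -1.55, edgeR adjusted p = 2.88e-07). The median of the list was -0.24 in con-4c against con-2c, below that of all genes.

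Of 30 genes for electron entry, coenzyme Q and carriers, 26 were tested, and 2 rose (7.69%) and 3 fell (11.5%) in con-4c against con-2c, beside 14.4% and 3.25% of all genes. For si-2c 1 rose and 1 fell (3.85% each) relative to con-2c, beside 10.7% and 1.8%, and in si-4c 2 rose (7.69%) and 4 fell (15.4%) relative to con-4c, beside 3.12% and 15.8%. These counts take in AOX1, the gene of aldehyde oxidase, which does not belong to the classes the list is named for. AOX1 was 1 of the 2 higher in con-4c, the 1 higher in si-2c and 1 of the 4 lower in si-4c. ETFA, which passes electrons from fatty acid oxidation, fell in con-4c, with 1124 ± 160.6 CPM in con-2c, 377.6 ± 25.1 CPM in con-4c, 407.8 ± 66.7 CPM in si-2c, with 1138 ± 101.4 CPM in si-4c (log2 fold change -1.57 with SE 0.12, edgeR adjusted p = 2.63e-08 in con-4c against con-2c). SLC25A3, the mitochondrial phosphate carrier, stood at 3.54 ± 0.390 CPM in con-2c against 8.10 ± 1.22 CPM in con-4c (log2 fold change 1.19, edgeR adjusted p = 0.00276).

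Of 10 nuclear regulators of the respiratory chain, 9 were tested, and 5 rose (55.6%) and 0 fell in con-4c against con-2c, beside 14.4% and 3.25% of all genes. These were NRF1, PPARGC1A, YY1, PPRC1 and GABPA. NRF1, a transcription factor of many respiratory chain genes, stood at 2.03 ± 0.301 CPM in con-2c, 34.6 ± 2.67 CPM in con-4c, 18.3 ± 3.89 CPM in si-2c, with 1.69 ± 0.185 CPM in si-4c (log2 fold change in con-4c 4.08 with SE 0.18, edgeR adjusted p = 2.92e-11). PPARGC1A, a coactivator of mitochondrial biogenesis, stood at 0.759 ± 0.262 CPM in con-2c against 5.32 ± 0.822 CPM in con-4c (log2 fold change 2.80 with SE 0.32, edgeR adjusted p = 2.8e-06). Of the 9, 3 rose in si-2c (33.3%, NRF1, PPARGC1A and YY1) and 0 fell, beside 10.7% and 1.8% of all genes, and in si-4c against con-4c 0 rose and 5 fell (55.6%, NRF1, PPARGC1A, YY1, PPRC1 and GABPA), beside 3.12% and 15.8%. HIF1A, CREB1 and GABPB1 were not called in any of these comparisons.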

How the data were processed

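Raw counts per Ensembl gene for the 12 SMART-seq libraries were deposited by the authors as whole numbers without normalization. The submitters' processing notes name cutadapt 1.9, HISAT2 2.2.1, StringTie 2.1.6, DESeq2 and edgeR and the build Sscrofa11.1, and the step that made the counts, its handling of strand and of reads with several matches were not given in the sources used here, so genes with near-identical copies or overlapping neighbours are uncertain (14 of the 54 members with a RefSeq symbol overlap another gene).

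Groups were taken from library titles. The counts were analysed in R 4.3.3 with edgeR 4.0.16: filterByExpr kept 17995 genes, TMM factors ran from 0.852 to 1.21, and 1 quasi-likelihood model with 4 group means was fitted to all libraries (biological coefficient of variation 27.3%). Standard errors were derived from the fitted fold change and its F statistic. The procedure was tested on simulated data. No 2 libraries of a group agreed within counting error (7.48 to 43.9 chi-square per degree of freedom), so each library was counted on its own. Reads carried no molecular identifiers, so the libraries, not the counts, set the precision. CPM were computed here from the deposited counts. Levels were not compared between genes, since no transcript lengths were used.

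The 82 members and the gene lists were chosen with earlier results of these data known. Every member called between the control groups or between si and control of one title is named. Values of every library are given for the 4 higher and 4 lower genes with the smallest p in con-4c against con-2c among called genes with at least 10 CPM in the higher group (fewer qualified as higher), for genes called in the crossed comparisons, for paralogs in the table, and for ATP5IF1, CYCS and SDHA to SDHD. The alternatives were DESeq2 1.42.0 and its size factors, library totals, no filter, only the groups compared, a replicate block, no minimum fold, and leaving out each of the 12 libraries. Those for the interaction were chosen after seeing the data. A symbol matched the gene name table for 81 of the 82 identifiers, and positions are from RefSeq. Promoter motifs and mitochondrially encoded genes were not analysed here. Other members are given by counts, and 1 result is not reported here.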

Additional observations from a re-analysis of the deposited data

Results flagged for a closer look

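The difference between titles was not the same in si and control embryos for 26 of the 34 named genes, which were called in the edgeR interaction test (the log2 fold change of si-4c against si-2c less that of con-4c against con-2c). The same test called 9.87% of all genes higher and 22.5% lower. Most named genes were named because they were called in comparisons of the same libraries, so nothing is read from the count. Those with a negative interaction, higher in con-4c than in con-2c and not so in the si pair, were NDUFA2 (-7.77), COX6A2 (-6.16, with counts in only 1 library each of con-2c and si-4c), NDUFS8 (-4.82), NDUFA13 (-4.25), NDUFAF5 (-3.28), NDUFS1 (-2.74), NDUFB11 (-2.65), COX7A2 (-2.29), NDUFB7 (-1.60), COX6A1 (-1.23) and NDUFV1, whose fitted value of -10.54 is no bound because si-4c had 0 counts.

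Those with a positive interaction were COX7A2L (2.998), ATP5IF1 (2.605), UQCRB (2.28), COX7B (2.05), NDUFB10 (1.78), CYCS (1.68), COX7C (1.57), SDHB (1.54), NDUFB6 (1.45), SDHC (1.42), NDUFB4 (1.402), ATP5MC1 (1.23), CYC1 (1.16), SDHD (1.14) and ATP5MC2 (1.13). By fitted value on TMM scaling con-4c lay below con-2c and si-4c above si-2c for each of these 15. With library totals 9 of the 15 were not called (ATP5MC1, ATP5MC2, COX7C, CYC1, NDUFB4, NDUFB6, SDHB, SDHC and SDHD). Summed oocyte markers were likewise high in con-2c and si-4c and low in con-4c and si-2c, and their part in the result was not tested.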

How the results depend on the processing

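Of 1734 log2 fold changes of named genes under the alternatives, 1658 kept their direction and side of the thresholds, 34 lost a call, 19 gained one and 23, all uncalled, changed sign. With library totals in place of TMM, values that changed sign became 0.1226 for ATP5MC3, 0.1778 for NDUFA4 and 0.1445 for NDUFA4L2 between the controls. Between the 2c groups they became 0.3158 for ATP5MC3, 0.1085 for NDUFA4, 0.1767 for NDUFAF6, 0.2149 for SDHA and 0.23 for SDHD, and between the 4c groups -0.1803 for ATP5MC3, -0.1066 for CYC1, -0.1049 for NDUFA4L2, -0.1774 for NDUFB6 and -0.01742 for SDHA. With the same scaling the median log2 fold change of the 82 genes became 0.1038 between the controls, -0.001276 between the 2c groups, -0.1286 between the 4c groups and -0.214 between the si groups. Calls higher and lower became 7 and 1 between the 2c groups, 1 and 17 between the 4c groups, 0 and 8 between the si groups and 7 and 17 in the interaction, and 0 genes were called lower in si-2c against con-4c. Over all genes tested the calls with that scaling were 3028 and 58 between the 2c groups, 231 and 3372 between the 4c groups, and 50 and 3096 between the si groups. In si-2c against con-4c they were 60 and 214. The cause was not tested. With no minimum fold, calls higher and lower were 16 and 31 between the controls, 8 and 35 between the 2c groups, 24 and 24 between the 4c groups, 26 and 9 between the si groups and 2 and 16 in si-2c against con-4c, with 9 lower in si-4c against con-2c and 37 higher in the interaction, as the looser rule implies. DESeq2 and its size factors each called 1 gene higher between the 4c groups, with ATP5IF1 just under the fold threshold. Leaving out each library in turn gave 4 to 7 genes lower between the controls (7 without con-4c replicate 1, with NDUFB10, NDUFC2 and NDUFS6 added). Between the 2c groups it gave 2 to 5 higher (5 without con-2c replicate 2) and 6 to 12 lower (6 without si-2c replicate 3). Between the 4c groups it gave 2 to 4 higher (4 without si-4c replicate 3) and a median of 0.005217 to 0.1611, lowest without si-4c replicate 1. Signs changed within the ranges of NDUFA4L2 (-0.7885 to 0.478 between the controls, -0.2414 to 0.8028 between the 4c groups), NDUFB6 (-0.02666 to 0.1421 between the 4c groups) and, between the 2c groups, NDUFAF6 (-0.6556 to 0.1215), NDUFB7 (-0.02643 to 0.1678) and SDHA (-0.268 to 0.01285).

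Libraries with the same replicate number in different groups did not deviate together (r from -0.05 to 0.029 over 18 pairs). A replicate block left every count of calls as it was, for example 10 higher and 4 lower between the controls and 24 and 11 in the interaction, with a median of 0.1052 and NDUFA4L2 at -0.05858 between the 4c groups. The interaction alternatives were chosen after seeing the data. The alternatives planned for mitochondrially encoded genes and promoters were not run.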
